A study of Homo sapiens with 18 samples.

Results

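The genes described here encode shelterin, the protein complex that covers chromosome ends (TERF1, TERF2, TERF2IP, TINF2, POT1 and ACD), and 2 subunits of telomerase (TERT and DKC1), together with SBSPON, the gene that lies next to TERF1 on chromosome 8. They were taken by gene symbol, and all 9 were found among the 27130 gene rows of the count tables. The set was chosen by measured values: TERF1 was picked for the difference in its level between the H9 clones, so its values in H9 are given as a description with no test. The same holds for every gene in the comparison of the H9 clones with each other.

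RNA was measured by poly(A) RNA sequencing in 18 libraries of H1 (WA01) and H9 (WA09), established lines of human embryonic stem cells, to ask what the zinc finger transcription factor ZNF263 does in pluripotency. The replicated groups were the homozygous ZNF263 knockout clone 1-10 and wild type of H1, and the homozygous knockout clones 9-1 and 9-D and wild type of H9, with 3 libraries each. Another H1 set had single libraries, 1 from the heterozygous knockout clone 1-5, 1 from clone 1-10 and 1 from wild type. Knockouts were made with Cas9, each knockout group is 1 clone, and no other allele or agent is named in the labels. What is particular to a clone and what follows from the loss of ZNF263 therefore cannot be told apart. The labels do not say whether libraries of a group came from separate cultures, so p-values measure the spread between these libraries, which may be technical.

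Chromosome ends carry a repeat that telomerase extends, and shelterin binds that repeat and keeps the ends from being treated as breaks. TERF1 and TERF2 bind the double-stranded repeat, POT1 binds its single-stranded end, ACD joins POT1 to TINF2, TINF2 bridges TERF1 and TERF2, and TERF2IP binds TERF2. In telomerase, TERT is the reverse transcriptase, the RNA TERC carries the template, and DKC1 (dyskerin) binds and stabilises TERC. Human pluripotent stem cells are known for active telomerase and for high TERF1. SBSPON encodes a secreted protein with somatomedin B and thrombospondin domains.

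The stretch of TERC around the template and the promoters of both telomerase subunits are shown to place the genes. The TERC stretch is written as DNA from the gene annotation of build GRCh38, at chr3:169764980-169765040 on the minus strand, with the template for the telomere repeat in capitals. The template covers bases 46 to 56 of the transcript as annotated there, which is 541 bases long.
TERC: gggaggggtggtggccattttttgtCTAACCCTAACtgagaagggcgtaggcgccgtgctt

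Promoters were taken from RefSeq (build GRCh38.p14), as the 250 bases before the annotated start, and 6 of the 9 genes were matched. TERF1 and SBSPON were left out, and TERF2 had no entry. Each window was searched on both strands for GGAGGA, a GA-rich word of the kind ZNF263 is known to bind, for the E-box CACGTG bound by MYC and MAX, for the Sp1 box GGGCGG and for the telomere repeat TTAGGG. Capitals mark GGAGGA (or its complement TCCTCC) and CACGTG. The TERT window lies at chr5:1295069-1295318 on the minus strand and the DKC1 window at chrX:154762614-154762863 on the plus strand.
TERT promoter: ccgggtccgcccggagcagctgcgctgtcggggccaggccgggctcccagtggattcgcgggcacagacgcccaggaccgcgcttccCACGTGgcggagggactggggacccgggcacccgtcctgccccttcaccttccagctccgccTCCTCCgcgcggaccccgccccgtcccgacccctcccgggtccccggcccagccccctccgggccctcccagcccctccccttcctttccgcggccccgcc
DKC1 promoter: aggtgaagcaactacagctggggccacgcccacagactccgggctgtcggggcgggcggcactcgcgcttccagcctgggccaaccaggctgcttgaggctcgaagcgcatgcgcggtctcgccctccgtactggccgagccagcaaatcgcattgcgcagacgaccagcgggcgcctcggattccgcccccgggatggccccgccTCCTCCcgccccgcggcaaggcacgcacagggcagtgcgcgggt

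The GGAGGA word was present in the windows of TERT, DKC1, TERF2IP, TINF2 and ACD and was not in the window of POT1. Of 35116 RefSeq promoter windows of this length, 31.8% held it. TERT alone of the 6 held the E-box, which 6.34% of windows held. All 6 held the Sp1 box, present in 42.6% of windows, and none held TTAGGG, present in 7.94%. These matches describe letters and not bound sites.

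Library totals ranged from 9.66 to 21 M counts (M, 1e6), and the limit that a count of 0 allows (3 counts) was 0.143 to 0.31 CPM (counts per M counts of the library). Levels below are CPM scaled by the trimmed mean of M values (TMM) over all 18 libraries, and fold changes are on the log2 scale with their standard error (SE). A gene was called at an adjusted p under 0.05 by the quasi-likelihood F test of edgeR, with p-values adjusted over all genes tested by the Benjamini-Hochberg method, and every adjusted p below is from this test unless another is named. ZNF263 itself stood at 32.8, 33.5 and 36.3 CPM in clone 1-10, against 40.7, 42.4 and 39.8 CPM in H1 wild type. It stood at 36.9, 35.9 and 34.0 CPM in clone 9-1 and at 35.17, 35.04 and 37.63 CPM in clone 9-D, against 39.0, 43.6 and 42.2 CPM in H9 wild type. All 3 clones were below wild type of their line with no overlap, while most of the RNA remained. In the single libraries ZNF263 was at 32.2 CPM for clone 1-5 and at 33.7 CPM for clone 1-10, against 39.8 CPM in wild type. The 8 pluripotency markers were detected in every library, with summed levels of 6674 to 9295 CPM in the replicated groups.

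TERF1, the gene of the TRF1 protein, was the most abundant of the shelterin genes in every replicated group. Per kilobase of its longest coding transcript, TERF1 averaged 216.6 CPM in clone 1-10 and 189.7 CPM in H1 wild type. It averaged 28.3 CPM per kilobase in clone 9-1, with 108.4 CPM per kilobase in clone 9-D, against 156.6 CPM per kilobase in H9 wild type. The other shelterin genes lay between 4.28 CPM per kilobase (POT1 in clone 1-10) and 16.4 CPM per kilobase (ACD in H1 wild type) in the same groups. TERF1 thus remained the highest of the 6 even in clone 9-1. DKC1 lay between 52.6 and 71.4 CPM per kilobase, TERT between 6.98 and 7.93, and SBSPON between 0.731 and 2.12.

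Reads of some of these genes can be shared. Exons of TERF2IP overlap KARS by 176 bases, those of POT1 overlap the antisense gene POT1-AS1 by 111 bases, those of ACD overlap CARMIL2 by 58 bases and those of TERF2 overlap AC026464.3 by 98 bases. DKC1 holds the small RNA genes SNORA36A, SNORA56 and MIR664B. Whether counting used strand is not given in the sources used here, so reads in these overlaps are uncertain. TERF1, TINF2, TERT and SBSPON have no exonic overlap in the annotation. TERF1 has 5 annotated pseudogenes, TERF1P1 to TERF1P5, none of which has a row in the count tables.

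In H9, TERF1 was lower in both knockout clones than in wild type, and far lower in clone 9-1 than in clone 9-D. It stood at 93.4, 95.9 and 88.3 CPM in clone 9-1 and at 360.8, 365.1 and 336.6 CPM in clone 9-D, against 486.8, 551.9 and 496.4 CPM in H9 wild type. The 3 groups did not overlap, and within each the libraries lay close together. Mean levels were 92.5 ± 3.85 CPM in clone 9-1, with 354.2 ± 15.4 CPM in clone 9-D, against 511.7 ± 35.2 CPM in H9 wild type (SD, n = 3 each). Clone 9-1 thus held 0.181 times and clone 9-D 0.692 times the wild-type mean, with log2 fold changes of -2.48 and -0.55. Clone 9-D held 3.83 times the mean of clone 9-1. Among 14292 genes over 1 CPM, TERF1 had the fourth largest absolute log2 ratio between the clones, and among 4763 genes over 50 CPM it had the largest.

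In H1, TERF1 rose slightly in clone 1-10. It stood at 727.5, 695.2 and 700.6 CPM in clone 1-10, against 660.4, 575.6 and 624.0 CPM in H1 wild type. All 3 libraries of the clone were above all 3 of wild type. Means were 707.8 ± 17.3 CPM in clone 1-10 and 620.0 ± 42.6 CPM in wild type (SD, n = 3 each), a log2 fold change that came to 0.19 (SE 0.048, adjusted p = 0.00769). With wild-type replicate 2 left out, TERF1 was no longer called (adjusted p = 0.065). The single libraries did not show a rise. TERF1 had 6379 counts in clone 1-5 (exact 95% Poisson interval 6220 to 6540) and 7216 in clone 1-10 (7050 to 7380), against 6275 in wild type (6120 to 6430). Per scaled library total, TERF1 in clone 1-5 was 0.874 times wild type (95% interval 0.844 to 0.906) and in clone 1-10 it was 0.974 times wild type (0.941 to 1.01). These intervals cover counting error only, and there is no replicate check.

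Ordered by TERF1 from lowest to highest, the replicated groups were clone 9-1, clone 9-D, H9 wild type, H1 wild type and clone 1-10, and no neighbours in this order overlapped. The lines were deposited in separate tables, so the order across lines is a description. In these replicated groups the direction of the clone against wild type differed between the lines. Every library of 9-1 and 9-D was below H9 wild type, and every replicated library of 1-10 was above replicated H1 wild type. The difference of the log2 fold changes was -2.67 for clone 9-1 minus clone 1-10 and -0.74 for clone 9-D minus clone 1-10, and these differences were not tested.

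**Figure D1:**
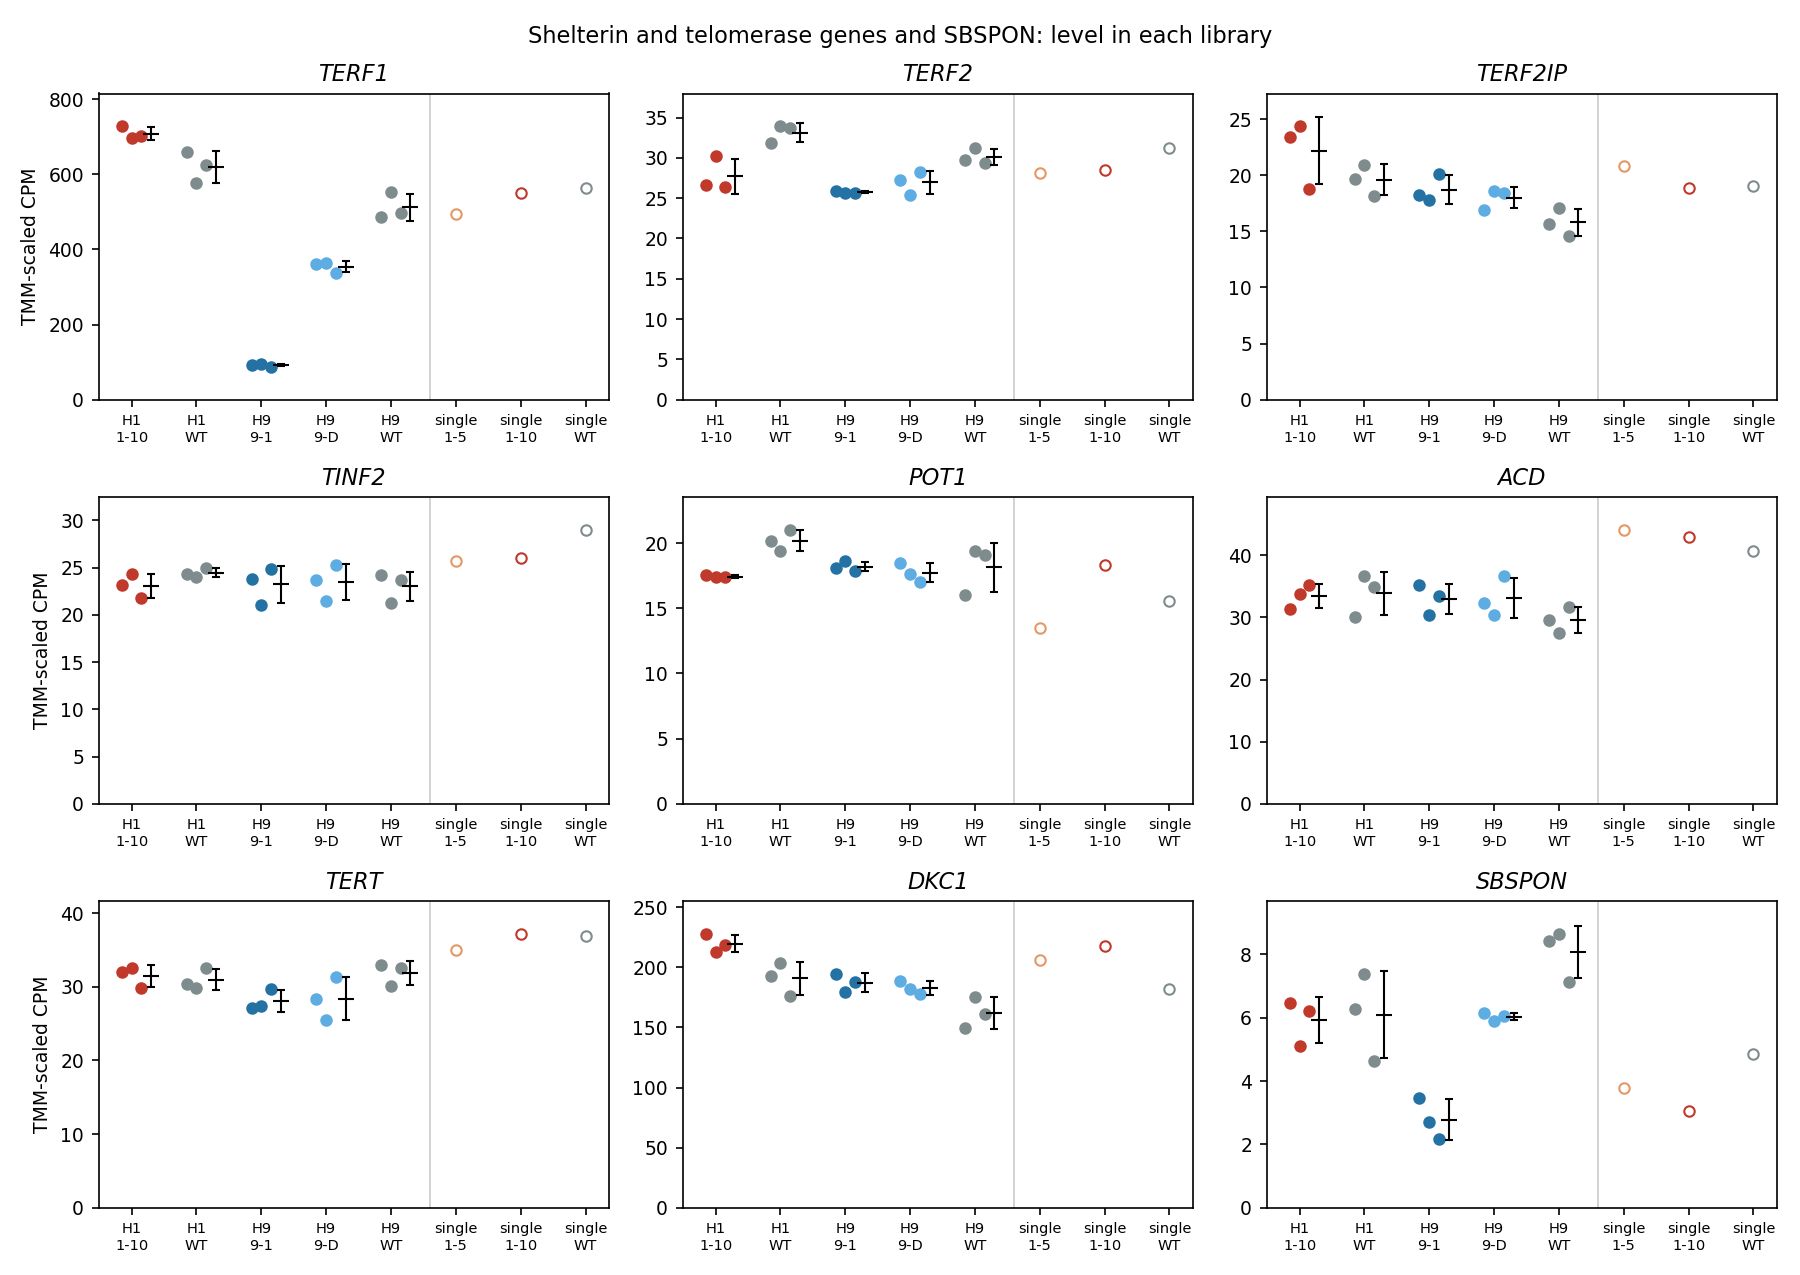
Level of each gene in every library, as TMM-scaled CPM on a linear axis from 0, with replicated groups left of the grey line (filled points, with mean and SD beside them) and single H1 libraries right of it (open points). TERF1 lies at 88.3 to 95.9 CPM in clone 9-1 and SBSPON at 2.18 to 3.46 CPM, each below all other replicated groups.

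SBSPON was also lower in both H9 clones, and much more so in clone 9-1. It stood at 3.46, 2.70 and 2.18 CPM in clone 9-1 and at 6.14, 5.91 and 6.05 CPM in clone 9-D, against 8.44, 8.64 and 7.13 CPM in H9 wild type. The 3 groups did not overlap, and SBSPON rested on 135 counts over the 3 libraries of clone 9-1 and 293 over those of clone 9-D, against 377 over H9 wild type. SBSPON entered the set as the neighbour of TERF1. Among the 14292 genes over 1 CPM it had rank 10 for the absolute log2 ratio between the clones. Its tests with H9 libraries use the data on which TERF1 was picked and are not independent of that choice. SBSPON fell in clone 9-1, to a log2 fold change from wild type of -1.55 (SE 0.17, adjusted p = 3.8e-09). It fell in clone 9-D at -0.43 (SE 0.15, adjusted p = 0.0308). The call in clone 9-D was lost without any 1 of 9-D replicates 1, 2 and 3 and wild-type replicates 1 and 2 (adjusted p 0.0622 to 0.104), and DESeq2 gave an adjusted p of 0.093. The call in clone 9-1 held without each library in turn (adjusted p 1.36e-09 to 2.22e-07). In H1, SBSPON stood at 6.46, 5.12 and 6.22 CPM in clone 1-10, against 6.27, 7.37 and 4.63 CPM in wild type, and the ranges overlapped. On the log2 scale SBSPON was at -0.06 (SE 0.17, adjusted p = 0.87), with a range of 2 SE on either side of -0.40 to 0.28. In the order of SBSPON level over all replicated groups, clone 9-1 alone stood apart from its neighbour without overlap.

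The SBSPON change in clone 9-1 differed from that in clone 1-10, with a difference of log2 fold changes of -1.495 (SE 0.24, adjusted p = 2.36e-05, edgeR fit over 15 libraries). For clone 9-D the difference was -0.38 (SE 0.23, adjusted p = 0.379). In the single H1 libraries SBSPON had 49 counts in clone 1-5 and 40 in clone 1-10, against 54 in wild type. The ratio to wild type was 0.781 (95% interval 0.519 to 1.17) in clone 1-5 and 0.627 (0.406 to 0.962) in clone 1-10.

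SBSPON was the gene most like TERF1 in level over the replicated libraries. Over the 15 replicated libraries, centred within each line, SBSPON had the highest Pearson r with TERF1 of 15802 genes (0.93), and over the 9 H9 libraries alone r was 0.97 and again the highest. The next most like TERF1 were MAGI2 (0.914), LINC01234 (0.91), ASPG (0.909) and ERBB2 (0.906), none of them on chromosome 8. Most like SBSPON after TERF1 were LINC01234 (0.889), MAGI2 (0.871), MTHFD1 (0.861) and CHST7 (0.858). These values share libraries and their depth and are given as a description. In clone 1-10, TERF1 was at a log2 fold change of 0.19 and SBSPON at -0.06. Centring was within line and not within group, so r includes the differences between the H9 groups, on which TERF1 was picked. LINC01234, for example, had a log2 fold change of -3.54 in clone 9-1 and -0.57 in clone 9-D.

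The genes on either side of TERF1 and SBSPON did not all share their lower level. In RefSeq order the 5 protein-coding genes before the pair are XKR9, EYA1, MSC, TRPA1 and KCNB2, and the 5 after it are C8orf89, RPL7, RDH10, STAU2 and UBE2W. KCNB2, a voltage-gated potassium channel, stood at 0.368, 0.426 and 0.351 CPM in clone 9-1 and at 0.564, 1.55 and 0.484 CPM in clone 9-D, against 0.952, 1.22 and 1.46 CPM in H9 wild type. KCNB2 fell in clone 9-1 (log2 fold change -1.64, SE 0.44, adjusted p = 0.00443). It rested on 19 counts over the libraries of clone 9-1 and 40 over those of clone 9-D, against 57 over H9 wild type. In clone 9-D it was at -0.56 (SE 0.38, adjusted p = 0.308), and without 9-D replicate 2, its high library, at -1.21 (adjusted p = 0.0427). In clone 1-10 KCNB2 was at -0.07 (SE 0.42, adjusted p = 0.939). Its difference of log2 fold changes for clone 9-1 minus clone 1-10 was -1.57 (SE 0.63, adjusted p = 0.131).

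RPL7, a ribosomal protein gene that lies between the pair and RDH10, stood at 924.0, 866.0 and 880.3 CPM in clone 9-1 and at 913.3, 973.6 and 967.3 CPM in clone 9-D, against 836.1, 919.8 and 880.9 CPM in H9 wild type. The groups overlapped, with log2 fold changes of 0.01 (SE 0.054, adjusted p = 0.942) and 0.10 (SE 0.054, adjusted p = 0.204), and reads of RPL7 can be shared with its near-identical copies. RDH10, a retinol dehydrogenase, stood at 7.28, 7.77 and 8.56 CPM in clone 9-1 and at 9.75, 9.85 and 8.41 CPM in clone 9-D, against 13.1, 15.2 and 13.9 CPM in H9 wild type. Both clones lay below every wild-type library. RDH10 fell in clone 9-1 (log2 fold change -0.85, SE 0.12, adjusted p = 5.92e-07) and in clone 9-D (-0.61, SE 0.11, adjusted p = 0.0001), while in clone 1-10 it was at -0.08 (SE 0.12, adjusted p = 0.735).

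STAU2, an RNA-binding protein gene, fell in clone 9-D (log2 fold change -0.21, SE 0.068, adjusted p = 0.0234) and was at -0.11 in clone 9-1 (SE 0.067, adjusted p = 0.246). The 9-D call of STAU2 was lost without 9-D replicate 2, 9-D replicate 3 or wild-type replicate 1 (adjusted p 0.0604 to 0.121). EYA1, TRPA1, MSC and UBE2W were not called in either H9 clone, at log2 fold changes of -0.89 (TRPA1 in clone 9-D) to 0.66 (MSC in clone 9-D). MSC was called in both clones without H9 wild-type replicate 3 (adjusted p 0.0262 in clone 9-1 and 0.0226 in clone 9-D), and for clone 9-1 also without 9-D replicate 3 (0.0442) and for clone 9-D also without 9-D replicate 1 (0.0386) or 2 (0.0184). MSC was also called in both with the replicate number as a block (0.0262 and 0.0397) and with no filter on low counts (0.0198 and 0.0153), and in clone 9-1 in the fit of only that clone and wild type (0.043). In H1, MSC, a basic helix-loop-helix factor, rose in clone 1-10 (0.90, SE 0.18, adjusted p = 0.000991). TRPA1, an ion channel of sensory neurons, fell there (-2.01, SE 0.50, adjusted p = 0.00673), with 0.174 to 0.422 CPM in clone 1-10, against 0.884 to 1.16 CPM in wild type, and it was no longer called with wild-type replicate 3 left out (adjusted p = 0.053). TRPA1 rested on 10 counts over the libraries of clone 1-10, against 41 over H1 wild type. In the single H1 libraries it had 1 count in clone 1-5 and 6 in clone 1-10, against 2 in wild type. XKR9 was below the filter on low counts, and C8orf89 had 0 counts in every library.

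Over the whole of chromosome 8 the median lay near that of all genes. The median log2 fold change of its tested genes was 0.0118 in clone 9-1 (531 genes, 83 higher and 66 lower) and 0.0121 in clone 9-D (531 genes, 71 higher and 65 lower). Over all genes, 12.8% were called higher and 13.5% lower in clone 9-1, and 11.5% higher and 12% lower in clone 9-D. The medians over all genes were -0.00367 and -0.00776. In clone 1-10 the chromosome 8 median was -0.0145 (509 genes, 32 higher and 46 lower), beside 0.00263 over all genes, of which 5.01% were called higher and 7.25% lower.

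**Figure D2:**
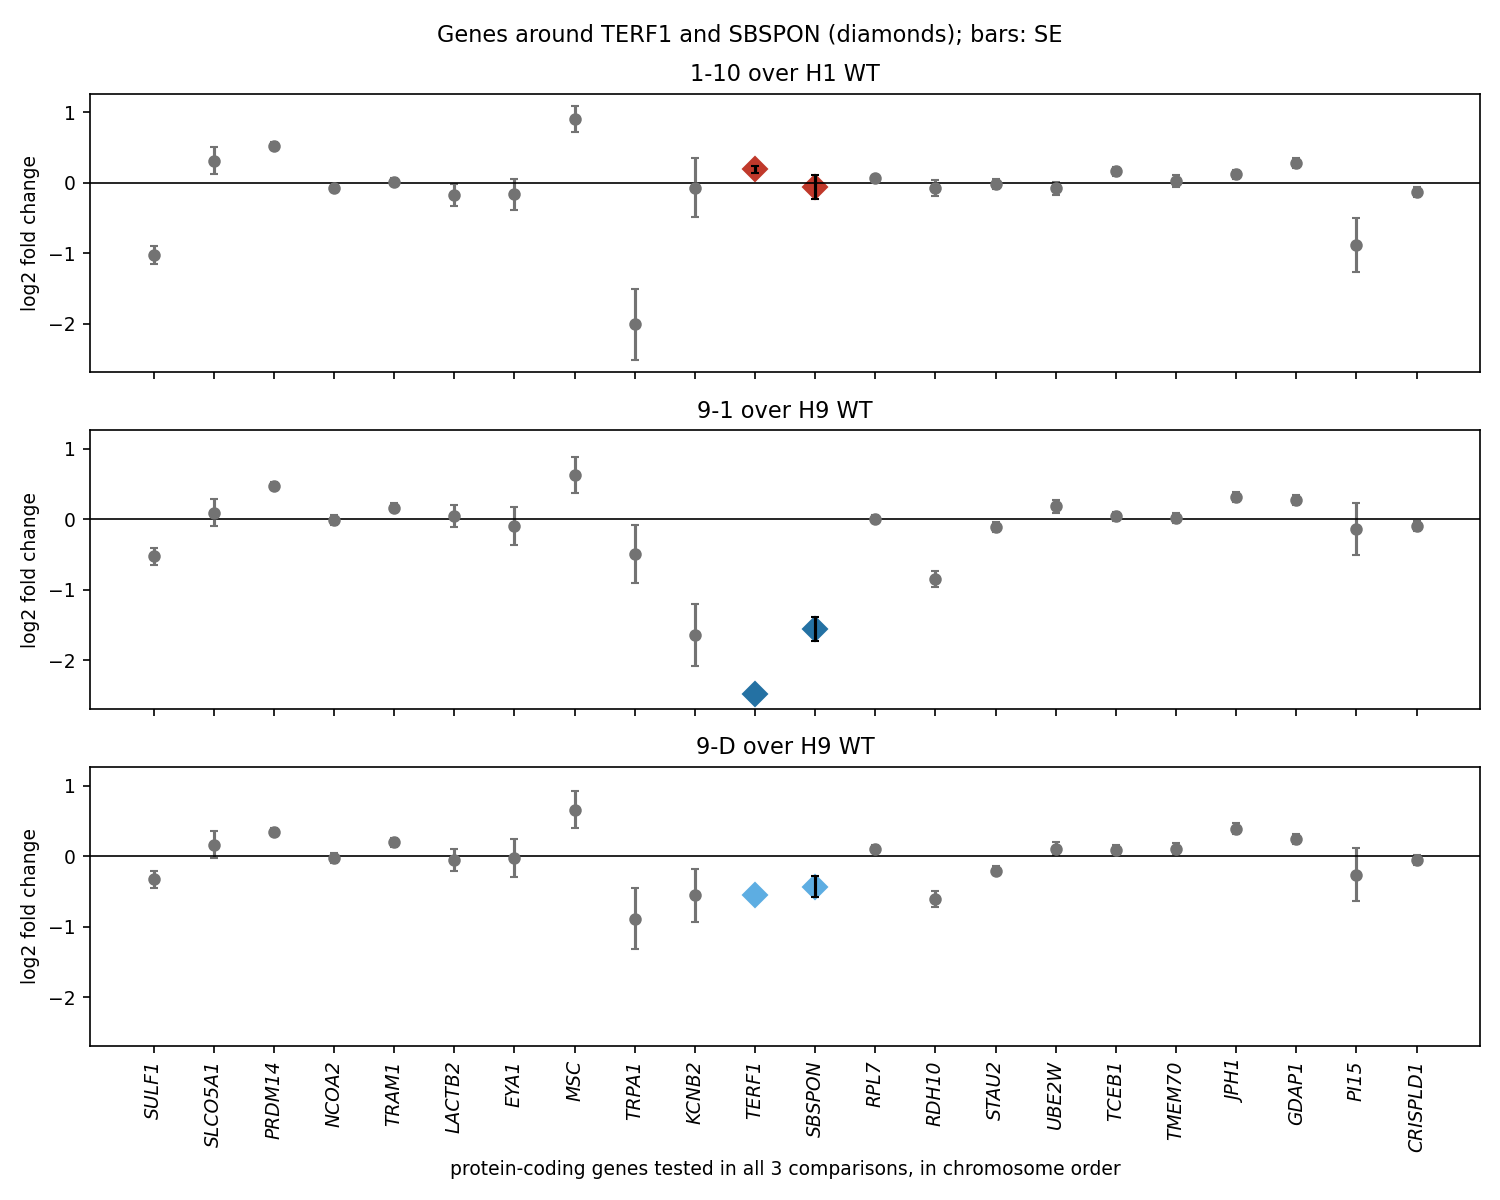
Log2 fold change of each clone over wild type of its line (bars are SE) for the protein-coding genes around TERF1 and SBSPON that were tested in all 3 comparisons, in chromosome order with equal spacing. TERF1 (diamond, with no bar where untested) and SBSPON lie at -2.48 and -1.55 in clone 9-1, with KCNB2 and RDH10 also below 0 on either side and RPL7 at 0.01 between them.

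The other shelterin genes moved little. TERF2, whose protein binds the double-stranded repeat beside TERF1, stood at 25.9, 25.7 and 25.7 CPM in clone 9-1 and at 27.3, 25.4 and 28.3 CPM in clone 9-D, against 29.7, 31.2 and 29.3 CPM in H9 wild type. It stood at 26.6, 30.2 and 26.3 CPM in clone 1-10, against 31.8, 33.9 and 33.7 CPM in H1 wild type. Every library of each clone was below every wild-type library of its line. TERF2 fell in clone 1-10 (log2 fold change -0.25, SE 0.083, adjusted p = 0.0388) and in clone 9-1 (-0.23, SE 0.079, adjusted p = 0.0252). It was at -0.17 in clone 9-D (SE 0.079, adjusted p = 0.113).

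Both TERF2 calls sat close to the threshold. The H1 call was lost without any 1 of clone replicates 1 and 3 and wild-type replicates 1, 2 and 3 (adjusted p 0.0529 to 0.176). The 9-1 call was lost without any 1 of 9-1 replicates 1, 2 and 3 and wild-type replicate 2 (0.0633 to 0.0792). With DESeq2 the adjusted p was 0.109 in H1 and 0.053 in clone 9-1, and with no filter on low counts it was 0.0547 in clone 9-1. In the single H1 libraries TERF2 was 0.9 times wild type in clone 1-5 (0.775 to 1.05) and 0.913 times in clone 1-10 (0.787 to 1.06).

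TERF2IP (RAP1), the partner of TERF2, stood at 18.3, 17.8 and 20.1 CPM in clone 9-1 and at 16.9, 18.6 and 18.5 CPM in clone 9-D, against 15.7, 17.1 and 14.6 CPM in H9 wild type. Clone 9-1 lay above wild type and clone 9-D overlapped it, and neither passed the test (log2 fold changes 0.23, adjusted p = 0.074, and 0.17, adjusted p = 0.219). Without wild-type replicate 2 the adjusted p in clone 9-1 was 0.0495. In clone 1-10 TERF2IP was at 0.19 (SE 0.1, adjusted p = 0.218).

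POT1, which binds the single-stranded end, stood at 17.6, 17.4 and 17.4 CPM in clone 1-10, against 20.18, 19.43 and 20.99 CPM in H1 wild type. These groups did not overlap, and the log2 fold change of -0.21 (SE 0.095) had an adjusted p of 0.142. In H9, POT1 was at 0.00 in clone 9-1 (SE 0.095, adjusted p = 0.985) and at -0.05 in clone 9-D (SE 0.095, adjusted p = 0.759). TINF2, the bridge between TERF1 and TERF2, averaged 23.3 ± 1.95 CPM in clone 9-1, with 23.5 ± 1.90 CPM in clone 9-D, against 23.03 ± 1.54 CPM in H9 wild type (SD, n = 3 each). In H1 it averaged 23.1 ± 1.27 CPM in clone 1-10 and 24.5 ± 0.467 CPM in wild type. ACD (TPP1) averaged 33.0 ± 2.42 CPM in clone 9-1, with 33.2 ± 3.21 CPM in clone 9-D, against 29.6 ± 2.10 CPM in H9 wild type, with adjusted p of 0.236 and 0.219. In H1 it averaged 33.5 ± 1.89 CPM in clone 1-10 and 33.9 ± 3.43 CPM in wild type.

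For these 3 genes the range of 2 SE around the log2 fold change was widest for POT1 in clone 1-10 (-0.40 to -0.02) and reached 0.31 for ACD in both H9 clones. Changes of that size are therefore not shown to be absent. While TERF1 in clone 9-1 held 0.181 times its wild-type level, TERF2, TERF2IP, TINF2, POT1 and ACD there held 0.856, 1.19, 1.01, 1.00 and 1.11 times theirs. Between the H9 clones the ratio of 9-D to 9-1 was 0.961 to 1.05 for these 5 genes, beside 3.83 for TERF1. In order of level, neighbouring groups overlapped for TERF2IP, TINF2 and ACD throughout. For TERF2 and POT1, H1 wild type alone stood above the next group without overlap. In the single H1 libraries the ratios to wild type of TERF2IP, TINF2, POT1 and ACD ranged from 0.865 (POT1 in clone 1-5) to 1.18 (POT1 in clone 1-10), and every interval included 1. Over the shelterin list, 1 gene rose and 1 fell of 6 in clone 1-10. Of the 5 other than TERF1, 1 fell in clone 9-1, and in clone 9-D 0 were called by edgeR and by DESeq2 and 1 had an unadjusted p under 0.05. Genes called in either direction were 12.3% of all genes in clone 1-10, 26.3% in clone 9-1 and 23.5% in clone 9-D. The medians of the log2 fold changes on the shelterin list were -0.0554, -0.00367 and 0.0107.

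DKC1, the dyskerin gene, was higher in all 3 clones. It stood at 194.7, 179.2 and 187.5 CPM in clone 9-1 and at 188.9, 181.9 and 177.6 CPM in clone 9-D, against 149.5, 175.6 and 160.8 CPM in H9 wild type. It stood at 227.4, 213.0 and 218.6 CPM in clone 1-10, against 192.8, 203.4 and 176.3 CPM in H1 wild type. Every library of each clone was above every wild-type library of its line. DKC1 rose in clone 1-10 (log2 fold change 0.20, SE 0.055, adjusted p = 0.0142) and in clone 9-1 (0.20, SE 0.060, adjusted p = 0.0131), and in clone 9-D it was at 0.16 (SE 0.060, adjusted p = 0.0542).

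The DKC1 calls also depended on single libraries. In H1 the call disappeared on leaving out clone replicate 1 (adjusted p = 0.0849) or wild-type replicate 3 (0.179). The 9-1 call was lost without 9-1 replicate 1 (0.0686), wild-type replicate 1 (0.131) or wild-type replicate 3 (0.0573). In clone 9-D, DKC1 was called without 9-1 replicate 1 (0.0463), 9-D replicate 3 (0.033) or wild-type replicate 2 (0.0103), and with DESeq2 (0.0424). The single H1 libraries went the same way, with a ratio to wild type of 1.13 in clone 1-5 (95% interval 1.06 to 1.2) and 1.2 in clone 1-10 (1.13 to 1.27), from 2658 and 2865 counts against 2027. In order of DKC1 level, clone 1-10 stood above all other groups and H9 wild type below them without overlap, while H1 wild type, clone 9-1 and clone 9-D overlapped.

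TERT, the catalytic subunit, stood at 27.1, 27.3 and 29.8 CPM in clone 9-1 and at 28.4, 25.5 and 31.3 CPM in clone 9-D, against 33.0, 30.1 and 32.6 CPM in H9 wild type. Clone 9-1 lay just below wild type and clone 9-D overlapped it. The log2 fold changes were -0.20 in clone 9-1 (SE 0.083, adjusted p = 0.0745) and -0.18 in clone 9-D (SE 0.083, adjusted p = 0.107). TERT was called in clone 9-1 without wild-type replicate 2 (adjusted p = 0.0492) and in clone 9-D without 9-D replicate 3 (0.0372). In H1 TERT stood at 32.1, 32.5 and 29.8 CPM in clone 1-10, against 30.4, 29.9 and 32.6 CPM in wild type. On the log2 scale TERT was at 0.03 (SE 0.080, adjusted p = 0.875), with a range of 2 SE on either side of -0.13 to 0.19. Neighbouring groups in the order of TERT level overlapped throughout. TERT in the single libraries was 0.946 times wild type in clone 1-5 (0.826 to 1.08) and 1.01 times in clone 1-10 (0.88 to 1.15). TERC was at most 0.904 CPM in clone 1-10 and fell below the filter in the comparisons within each line, in libraries made from polyadenylated RNA.

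Counted together, 3 of 9 genes were called in clone 1-10 (TERF1 and DKC1 higher, TERF2 lower), where 12.3% of all 14897 genes tested were called. In clone 9-1 it was 3 of the 8 genes tested (DKC1 higher, TERF2 and SBSPON lower), where 26.3% of all 15411 genes were called. In clone 9-D it was 1 of 8 (SBSPON lower), where 23.5% were called. All 9 genes passed the filter on low counts in every comparison. The count in clone 1-10 was 1 without clone replicate 1 or wild-type replicate 2 or 3, and the count in clone 9-1 was 1 without 9-1 replicate 1. In clone 9-D it was 0 without 9-D replicate 1 or 2 or wild-type replicate 1, and 2 without 9-1 replicate 1 or 9-D replicate 3. Of the differences between clone 9-1 and clone 1-10, 1 of 8 was called (SBSPON), where 8.35% of 15802 genes were called. Of those between clone 9-D and clone 1-10, 0 of 8 were called by edgeR, by DESeq2 or at an unadjusted p under 0.05, where 7.59% of genes were called by edgeR. The comparisons of the H9 clones share the wild-type libraries, and those between lines share the H1 libraries too.

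**Figure D3:**
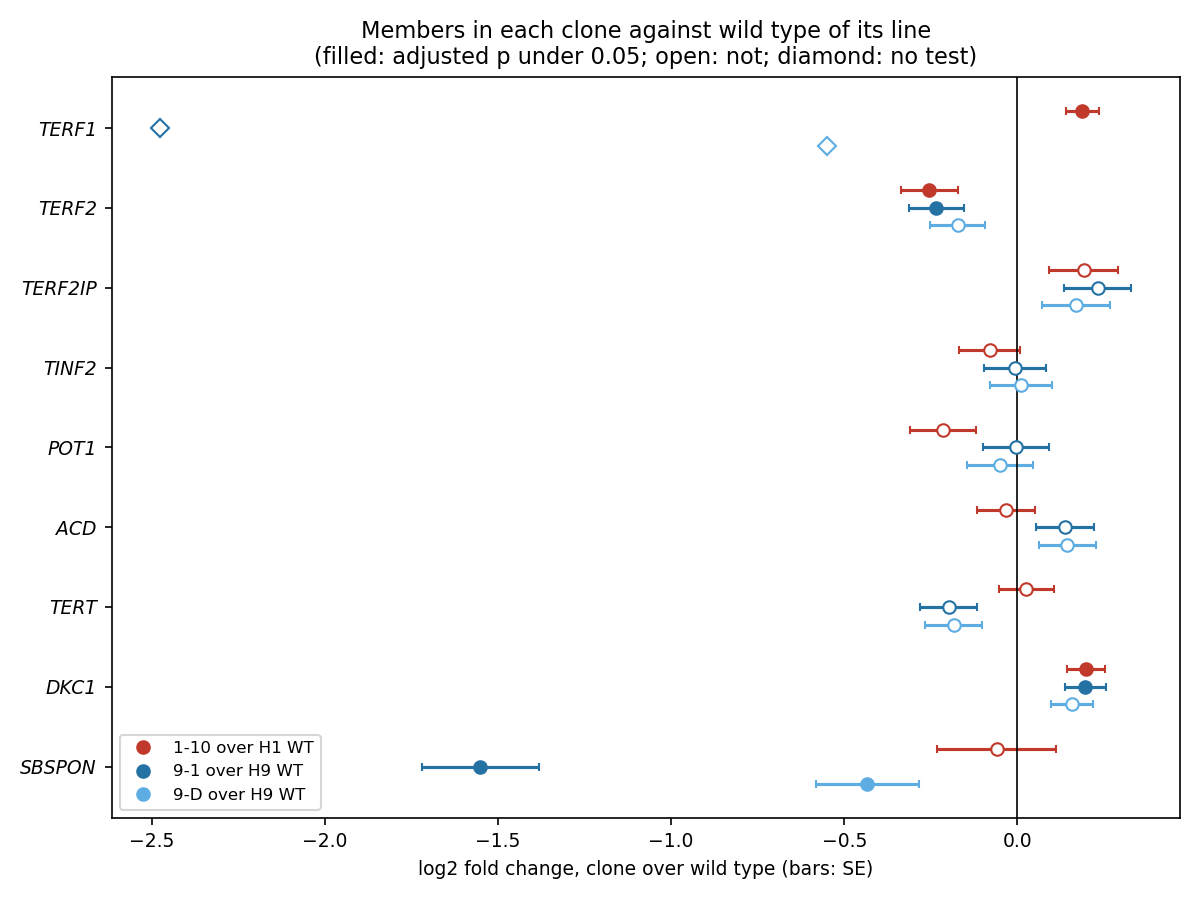
Log2 fold change over wild type of the same line (bars are SE) of each gene in clones 1-10, 9-1 and 9-D, with filled points at an adjusted p under 0.05, open points above it and diamonds where no test was made. TERF1 in clone 9-1 (-2.48) and SBSPON in clone 9-1 (-1.55) stand apart, and all other points lie between -0.55 and 0.23.

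In the authors' deposited table for H1, TERF1 had a log2 fold change of 0.20 (adjusted p = 0.000798, DESeq2) and DKC1 of 0.21 (adjusted p = 0.00306). TERF2 had -0.24 there and did not pass the threshold (adjusted p = 0.0768). The authors' deposited table for H9 pools both clones, and gives -1.21 for TERF1, a value that lies between -2.48 in clone 9-1 and -0.55 in clone 9-D in the edgeR fit. The same deposited table gives -0.88 for SBSPON (adjusted p = 0.0639), -0.20 for TERF2 (adjusted p = 0.0329), 0.18 for DKC1 (adjusted p = 0.00358) and -0.19 for TERT (adjusted p = 0.0651). These adjusted p-values treat libraries of both clones as replicates of a common group, so they cannot be set beside the tests per clone.

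Those genes of telomerase and its assembly that passed the test were all higher. This list, like the others, was chosen with earlier results of these data known. Of 13 tested, TERT and DKC1 among them and TERC below the filter, 4 rose and 0 fell in clone 1-10, 3 rose and 0 fell in clone 9-1, and 3 rose and 0 fell in clone 9-D. Genes called higher were 5.01% of all genes in clone 1-10, 12.8% in clone 9-1 and 11.5% in clone 9-D. Median log2 fold changes of the list were 0.0973, 0.0614 and 0.0954, beside 0.00263, -0.00367 and -0.00776 over all genes. GAR1, a protein of the same box H/ACA particle as dyskerin, rose in clone 1-10 (0.34, SE 0.071, adjusted p = 0.00139). TOE1, a 3′ exonuclease that trims TERC, rose there too (0.30, SE 0.090, adjusted p = 0.0236), a call lost without clone replicate 2 (0.0776) or wild-type replicate 3 (0.177) and with DESeq2 (0.0657).

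PARN, a deadenylase that matures TERC, rose in clone 9-1 (0.21, SE 0.064, adjusted p = 0.0118), a call lost without H9 wild-type replicate 1 (0.0841). PINX1, a telomerase inhibitor that binds TERT and TERF1, rose in clone 9-1 (0.23, SE 0.081, adjusted p = 0.036) and in clone 9-D (0.27, SE 0.081, adjusted p = 0.0127). Its 9-1 call was lost without 9-1 replicate 1 or 3 or any wild-type replicate (0.0695 to 0.121) and with DESeq2 (0.0623), and its 9-D call without 9-D replicate 3 (0.0617) or wild-type replicate 1 (0.055). NOP10, another H/ACA protein, rose in clone 9-D (0.21, SE 0.070, adjusted p = 0.0249), a call lost without 9-D replicate 3 (0.134) or wild-type replicate 1 (0.176). The remaining called genes, named after their values were seen, were NHP2 in clone 1-10 and PARN in clone 9-D. The list count was 2 with clone 1-10 replicate 2 left out and 1 with H1 wild-type replicate 3 left out. Without H9 wild-type replicate 1 it was 0 in both H9 clones, and in clone 9-1 it was 1 without 9-1 replicate 1 or wild-type replicate 3.

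Genes of the CST complex and telomere replication, such as CTC1 and RTEL1, gave 0 calls of 14 tested in each of the 3 clones by edgeR, and 0 by DESeq2, beside 12.3%, 26.3% and 23.5% of all genes called in clones 1-10, 9-1 and 9-D. At an unadjusted p under 0.05 there were 2 in clone 1-10, 1 in clone 9-1 and 0 in clone 9-D. Without H9 wild-type replicate 1, 1 gene was called in clone 9-1. Median log2 fold changes were 0.0115, 0.0131 and -0.0618.

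Among 16 partners of shelterin and end-processing factors, 1 rose in clone 1-10, 1 rose and 3 fell in clone 9-1, and 3 fell in clone 9-D. Genes called lower were 7.25%, 13.5% and 12% of all genes. Medians of the list were 0.00155, -0.00486 and -0.033. EXO1, an exonuclease, rose in clone 1-10 (0.26, SE 0.077, adjusted p = 0.0226). This call was lost without clone replicate 1 or 3 or wild-type replicate 2 or 3 (0.0596 to 0.137), leaving 0, and without clone replicate 2 the list had 4 calls. In clone 9-1, RIF1, a replication-timing and break-repair factor, rose (0.25, SE 0.067, adjusted p = 0.00528), and ERCC1, part of a structure-specific nuclease, fell (-0.36, SE 0.093, adjusted p = 0.00371).

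SLX4, a nuclease scaffold, fell in clone 9-1 (-0.31, SE 0.088, adjusted p = 0.00742) and in clone 9-D (-0.27, SE 0.087, adjusted p = 0.0195). Its calls were lost without H9 wild-type replicate 1 (0.107 and 0.212), and in clone 9-D also without 9-D replicate 2 or 3 (0.103 and 0.0789). TNKS (tankyrase), which modifies the TRF1 protein, fell in clone 9-D (-0.24, SE 0.063, adjusted p = 0.00513). TNKS in clone 9-1 and ATM, a kinase that signals breaks, in clone 9-D were also called lower, and are named after their values were seen. Without H9 wild-type replicate 1 the list had 2 calls in clone 9-1.

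Of 9 other telomere-binding or ATRX-DAXX genes, 1 fell in clone 1-10, 1 rose and 1 fell in clone 9-1, and 1 rose and 2 fell in clone 9-D, with medians of -0.0581, -0.101 and -0.0892. Genes called in either direction were 12.3%, 26.3% and 23.5% of all genes, and the shares on this list lay near these. ZBTB10, a zinc finger protein that binds variant telomere repeats, fell in clone 1-10 (-0.34, SE 0.089, adjusted p = 0.01), in clone 9-1 (-0.35, SE 0.10, adjusted p = 0.0113) and in clone 9-D (-0.46, SE 0.11, adjusted p = 0.000997). In H1 the call disappeared on leaving out wild-type replicate 3 (0.0562), which left 0 on the list. The 9-1 call was lost without 9-1 replicate 3 or wild-type replicate 1 or 2 (0.0517 to 0.104). UPF1, an RNA helicase, rose in clone 9-1 (0.15, SE 0.056, adjusted p = 0.0369), a call lost without any 9-1 replicate or wild-type replicate 2 or 3 (0.0723 to 0.12). The list count in clone 9-1 was 0 without 9-1 replicate 3 and 1 without any other 1 of its libraries or of wild type.

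DAXX, a histone chaperone, rose in clone 9-D (0.17, SE 0.059, adjusted p = 0.0268), and NR2C2, a nuclear receptor, fell there (-0.17, SE 0.060, adjusted p = 0.0426). The DAXX call was lost without 9-D replicate 3 or wild-type replicate 1 or 2 (0.0684 to 0.0975). That of NR2C2 was lost without 9-1 replicate 1 or 3, 9-D replicate 1 or 2, or wild-type replicate 1 or 3 (0.0661 to 0.191). It was also lost with no filter on low counts (0.0751), with DESeq2 (0.0518) and in the fit of only clone 9-D and wild type (0.0737). ZSCAN4 was below the filter in all 3 comparisons.

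Those regulators of TERT transcription that passed the test were all higher, beside a TERT level that passed the test in no clone. Of 14 tested, 2 rose in clone 1-10, 7 rose in clone 9-1 and 4 rose in clone 9-D, and 0 fell in any. Over all genes, 5.01%, 12.8% and 11.5% were called higher in these clones and 7.25%, 13.5% and 12% lower. Medians were 0.0553, 0.202 and 0.0884. KLF4, an activator and a naive pluripotency factor, rose in clone 9-1 (0.56, SE 0.10, adjusted p = 8.32e-05) and in clone 9-D (0.67, SE 0.10, adjusted p = 5.04e-06). MXD1, a repressor that competes with MYC for MAX at the E-box, rose in clone 9-1 (0.78, SE 0.16, adjusted p = 0.000176) and in clone 9-D (0.65, SE 0.16, adjusted p = 0.00208). These 4 calls held without each library in turn.

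In clone 1-10, MYC rose (0.24, SE 0.061, adjusted p = 0.01), and so did CTCF, an insulator protein (0.18, SE 0.053, adjusted p = 0.0222). The MYC call was lost without wild-type replicate 3 (0.106), and the CTCF call without clone replicate 1 or 3 or wild-type replicate 1 or 3 (0.0594 to 0.137). The others called higher, named after their values were seen, were MYC, NFX1, GABPB1, MAX and CTCF in clone 9-1. In clone 9-D they were MAX and MYC. The list count in clone 1-10 was 0 with wild-type replicate 3 left out. It was 1 with clone replicate 1 or 3 or wild-type replicate 1 left out. The count in clone 9-1 was 4 without 9-1 replicate 3 or wild-type replicate 1.

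**Figure D4:**
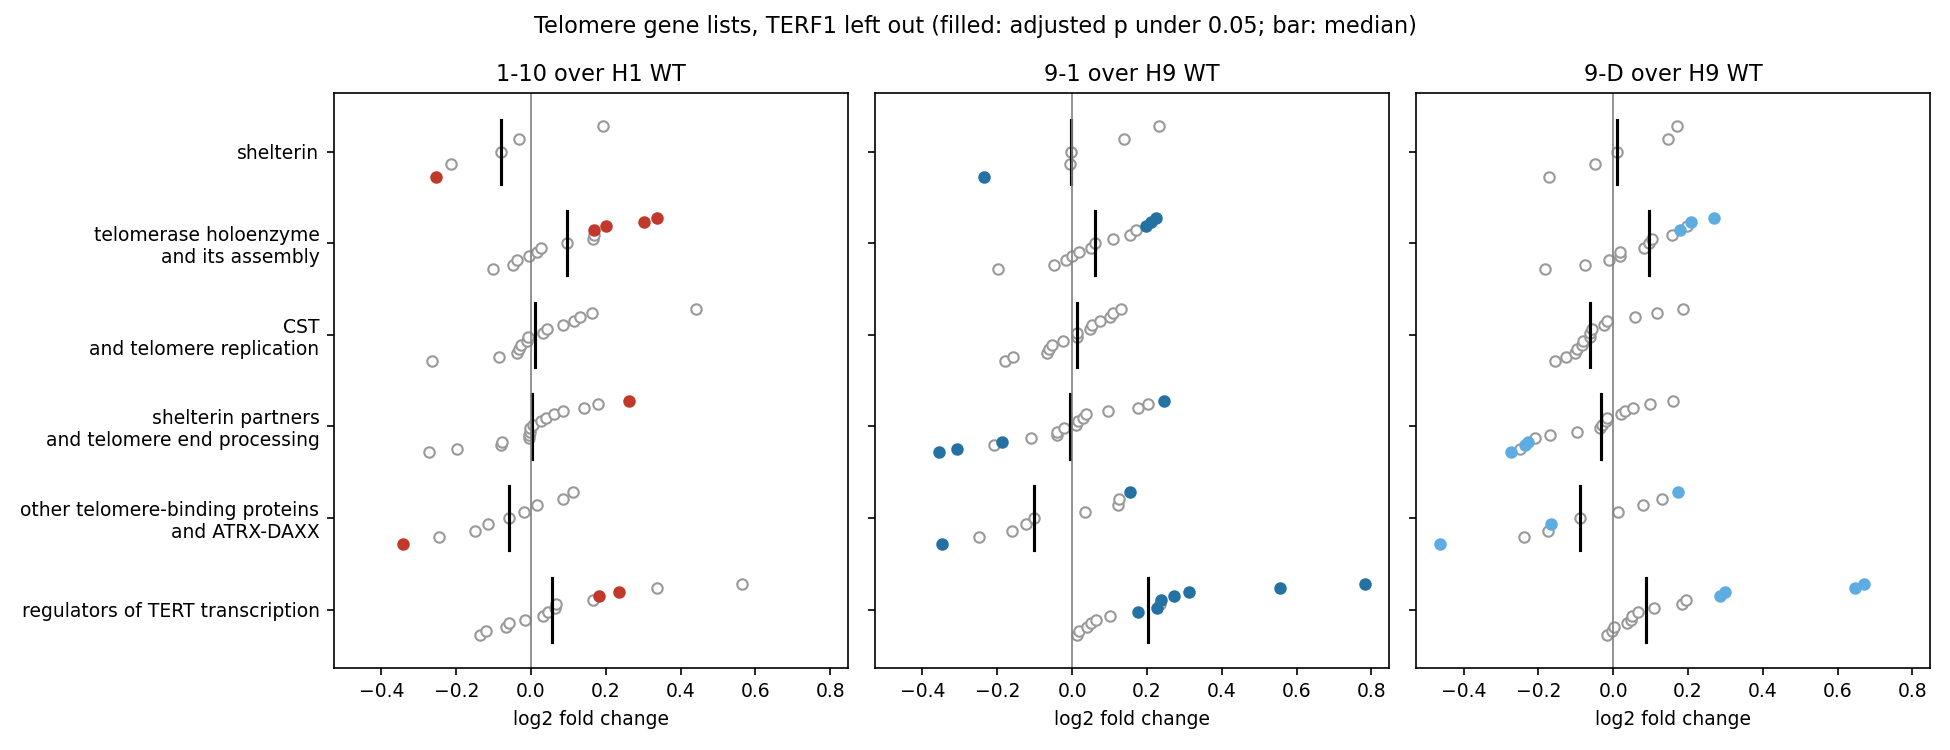
Log2 fold change of each tested gene of 6 telomere gene lists in clones 1-10, 9-1 and 9-D over wild type of the same line, without TERF1, with filled points at an adjusted p under 0.05 and a black bar at the median of the list. The TERT regulator list in clone 9-1 has its median at 0.202, and the telomerase list has its filled points right of 0 in all 3 panels.

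Markers of cell state moved beside these genes, and their part in the results was not tested. Of the 8 pluripotency markers, none was at 0, and their summed level was 7830 to 8051 CPM in clone 9-1, with 7986 to 8173 CPM in clone 9-D, against 6674 to 6916 CPM in H9 wild type. It was 9000 to 9295 CPM in clone 1-10, against 8082 to 8511 CPM in H1 wild type. The 4 primitive streak markers summed to 3.55 to 8.11 CPM in clone 1-10, against 18.03 to 18.91 CPM in H1 wild type, and the 4 neuroectoderm markers to 4.95 to 7.32 CPM, against 18.01 to 22.89 CPM. In the single H1 libraries, streak sums were 3.405 CPM in clone 1-5 and 2.89 CPM in clone 1-10, against 1.98 CPM in wild type. Neuroectoderm sums there were 8.20 and 6.77 CPM, against 8.72 CPM. In H9, streak sums were 2.72 to 18.67 CPM in clone 9-1 and 3.69 to 10.76 CPM in clone 9-D, against 4.14 to 7.82 CPM in wild type. H9 neuroectoderm sums were 0.90 to 2.88 and 1.27 to 1.57 CPM, against 2.45 to 3.96 CPM in wild type. In H9 the 4 endoderm markers summed to 2.28 to 5.83 CPM in clone 9-1, with 2.60 to 5.02 CPM in clone 9-D, against 1.16 to 1.71 CPM in wild type. The endoderm sums overlapped in H1, at 3.81 to 6.32 CPM in clone 1-10, against 5.21 to 8.76 CPM in wild type. The 4 trophoblast markers summed to 4.70 to 6.11 CPM in clone 9-1, with 4.45 to 7.20 CPM in clone 9-D, against 7.997 to 8.35 CPM in H9 wild type. They summed to 4.77 to 5.48 CPM in clone 1-10, against 9.49 to 10.35 CPM in H1 wild type, so all 3 clones lay below wild type without overlap. KRT7, a keratin, was the marker of this list that fell, with log2 fold changes of -0.95 in clone 1-10 (adjusted p = 2.94e-05), -0.69 in clone 9-1 (0.00205) and -0.60 in clone 9-D (0.00728). In clone 1-10 only KRT7 was tested. In H9 the other marker tested, GATA3, went the other way and was not called. The list medians there were -0.0363 in clone 9-1 and 0.122 in clone 9-D. CGA, CGB5 or both were at 0 in every library of each group. The 6 fibroblast and feeder markers summed to 739.6 to 811.3 CPM in clone 9-1, with 836.2 to 915.6 CPM in clone 9-D, against 812.6 to 858.4 CPM in H9 wild type, and to 575.4 to 688.0 CPM in clone 1-10, against 614.5 to 648.5 CPM in H1 wild type, with LUM at 0 throughout clone 9-1 and DCN at 0 throughout clone 9-D and H9 wild type. LUM and DCN were below the filter on low counts in every comparison, so this sum came mainly from the other markers. Whether the sum reflects such cells was not tested. The fibroblast and feeder sum also hides changes of both directions in H9. COL1A1 was called higher in both H9 clones, while THY1 was called lower in both and COL1A2 lower in clone 9-1. In clone 1-10, COL3A1 and COL1A2 were called lower. In bulk samples, fewer cells of a type and less RNA per cell cannot be told apart.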

How the data were processed

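Per the labels, polyadenylated RNA was sequenced in 18 libraries. The submitters' processing notes name STAR, featureCounts, DESeq2 and the build hg19. Their versions are not given in the sources used here. The counts deposited are whole numbers of reads, not normalized, for 27130 gene symbols. The authors' deposited comparison tables hold log2 fold changes and p-values adjusted by DESeq2, per the file headers. The count column named as a control was taken as the single wild-type library.

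Counts were tested with edgeR 4.0.16 (R 4.3.3; TMM, filterByExpr by group, quasi-likelihood F test, Benjamini-Hochberg, threshold 0.05). H1 clone 1-10 was set against H1 wild type, each H9 clone against H9 wild type in a fit of 3 groups, and the difference of effects was fitted over 15 libraries. An SE is the size of the log2 fold change over the root of its F statistic. Log2 CPM for likeness used a prior count of 2. The script was tested on simulated data. Between replicates chi-square per gene was 1.83 to 5.94, above counting noise. Named were all 9 genes, 5 neighbours per side, the 5 genes most like TERF1 and SBSPON, ZNF263, and from each list at most 2 called genes per direction with the largest change. Alternatives were DESeq2 1.42.0, its size factors, no filter, a replicate block, fits of 2 groups, CPM by library total and leaving out each library. Transcript lengths and overlaps are from GENCODE (GRCh38), and gene order is from RefSeq GRCh38.p14, which differ from the build used for counting. The members and lists were chosen with earlier results of these data known.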

Additional observations from a re-analysis of the deposited data

Results flagged for a closer look

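By a test of the difference itself, the changes of SBSPON and SLX4 differed between clone 9-1 and clone 1-10. That of RDH10, a neighbour of SBSPON, differed from clone 1-10 in both H9 clones. Line and clone cannot be told apart in these contrasts. For SBSPON the log2 fold change of clone 9-1 minus that of clone 1-10 was -1.495 (adjusted p = 2.36e-05, edgeR fit over 15 libraries), and for clone 9-D it was -0.38 (adjusted p = 0.379). For RDH10 the difference was -0.77 for clone 9-1 (SE 0.16, adjusted p = 0.0011) and -0.53 for clone 9-D (SE 0.16, adjusted p = 0.0307). The 9-D difference was lost without any 1 of clone 1-10 replicates 1 and 2, H1 wild-type replicates 1 and 3, 9-D replicate 3 and H9 wild-type replicate 2 (adjusted p 0.0535 to 0.1), and with DESeq2 (0.0808). For SLX4 it was -0.37 for clone 9-1 (SE 0.12, adjusted p = 0.041). That call was lost without any 1 of clone 1-10 replicates 1 and 2, H1 wild-type replicates 1 and 3, 9-1 replicates 1, 2 and 3 and H9 wild-type replicate 1 (0.0527 to 0.165), and with DESeq2 (0.0653). For clone 9-D the SLX4 difference was -0.34 (SE 0.12, adjusted p = 0.0745).

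TERF1 was lower than wild type in every library of both H9 clones and higher than wild type in every library of clone 1-10. The difference of log2 fold changes was -2.67 for clone 9-1 and -0.74 for clone 9-D. It was not tested, since TERF1 was picked for its difference between the H9 clones.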

How the results depend on the processing

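No alternative turned the direction of a called result. In clone 1-10, 1827 genes were called (40.9% of them higher). With the replicate number as a block it was 2926 (50.3% higher), with DESeq2 1214 (47.2% higher), and with 1 library left out 949 to 2100, the lowest without H1 wild-type replicate 3 (29.9% higher) and 1102 without clone replicate 1. Among the 9 genes, leaving out each library gave 1 to 3 calls in clone 1-10, 1 to 4 in clone 9-1 and 0 to 2 in clone 9-D, beside 3, 3 and 1. In clone 9-D there were 2 with DESeq2 size factors, 2 with no filter on low counts and 2 with the replicate block, as DKC1 was then called (adjusted p 0.0388 to 0.0484). For results of single genes, 1507 of 1620 alternatives with an adjusted p kept direction and side of the threshold, 92 ended a call and 21 made one. For counts on the lists, 402 of 456 stayed within 1.5 times. Levels scaled by library total in place of TMM moved by less than 1 SD in all but 2 cases, TERF2 in H9 wild type and POT1 in clone 1-10.

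The cause of these shifts was not tested. Deviations of libraries sharing a replicate number correlated at -0.0268 to 0.0796, so the numbers were not taken as pairs. Each of the 6 H1 libraries correlated best with its own number, a hint from the data and not from the design. Changes in level near 15%, as of TERF2, DKC1 and TERT, were called or not called depending on the library left out. The smallest change that 3 libraries per group can show was not computed. SBSPON, KCNB2 and TRPA1 rested on low counts.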
